A study of Rattus norvegicus with 10 samples.

Results

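The genes described here encode the machinery of the G2/M transition and of mitosis: the kinase CDK1 and its cyclins, the mitotic kinases, the spindle checkpoint, the spindle motors and microtubule proteins, the condensins and the proteins of cytokinesis. They were chosen by name, as 56 genes known for these roles, and were kept where reads were found in all 10 libraries. This left 55 of the 56, out of 13391 genes with reads in all 10 libraries. Ccnb2 was not among the genes with reads in all 10 libraries. Levels were scaled over all 10 libraries, so that a level, in normalised reads, is a read number divided by a size factor of its library. All 55 genes had mean levels above 50.

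The cells were RPE-J, 1 SV40-transformed line of rat retinal pigment epithelium from a Long-Evans animal, and all groups came from this line. Cultures received PNU-282987, called PNU from here on, which activates the α7 type of nicotinic acetylcholine receptor, at 100 nM for 30 min, 1 h, 3 h, 8 h or 12 h; nicotine at 1 µM, named as the positive control for receptor activation, for 12 h or 1 h; MLA at 100 nM, named as the negative control, for 12 h or 1 h; or the vehicle DMSO for 12 h. Each of these 10 conditions is 1 polyA-selected library of cells lifted with trypsin, so no condition has a replicate and no difference between single libraries carries a test. Vehicle cells were taken at 12 h only, so a change with time cannot be told apart from time in culture by a vehicle course.

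In a cycling cell these genes form a program that is silent early in the cycle, switches on in late S and G2 phase, peaks at mitosis and is shut down as cells divide. Many of their promoters share a motif called the CHR (cell cycle genes homology region), which is bound by MuvB complexes, with CCAAT boxes upstream that are bound by NF-Y; MuvB joins p130 or p107 and E2F4 to repress in quiescence, and B-MYB and FOXM1 to activate in G2. The pigment epithelium of the adult mammalian eye normally does not divide, whereas a transformed line in culture does, and RNA from such a culture is an average over cells in all phases. Fewer cells in G2/M and less of these RNAs per cell cannot be told apart in such bulk samples.

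The promoters of the 9 genes given below with values in every library are shown, since 2 motifs found more often in promoters of these genes than in all promoters can be seen in most of them, though not both in each. They come from RefSeq on GRCr8, a rat assembly that need not be the build used for counting, and run from 250 bases before to 50 bases after the start of the gene. The first 7 follow from the rule for named genes; Cdca8 and Plk1 were added after their values were seen, because their levels run the other way. Capitals mark the CHR letters TTTGAA or TTCGAA and the CCAAT box, each on either strand, so that they also appear as TTCAAA and ATTGG. In Mki67 and in Cdca8 1 CHR match overlaps 1 CCAAT match.
Ncapg, chr14:69645396-69645695, minus strand: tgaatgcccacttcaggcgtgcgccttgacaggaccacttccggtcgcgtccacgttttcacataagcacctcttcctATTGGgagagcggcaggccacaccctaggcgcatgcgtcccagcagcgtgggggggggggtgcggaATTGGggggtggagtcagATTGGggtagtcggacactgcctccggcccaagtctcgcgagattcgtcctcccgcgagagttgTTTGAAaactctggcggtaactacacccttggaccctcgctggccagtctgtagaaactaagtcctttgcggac
Anln, chr8:29197464-29197763, minus strand: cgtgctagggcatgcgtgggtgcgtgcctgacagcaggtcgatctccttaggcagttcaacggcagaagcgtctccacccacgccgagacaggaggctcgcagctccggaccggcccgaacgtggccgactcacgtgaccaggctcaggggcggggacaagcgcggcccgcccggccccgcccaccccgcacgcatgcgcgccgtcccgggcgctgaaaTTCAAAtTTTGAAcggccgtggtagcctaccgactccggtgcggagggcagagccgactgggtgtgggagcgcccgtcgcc
Ect2, chr2:111966577-111966876, minus strand: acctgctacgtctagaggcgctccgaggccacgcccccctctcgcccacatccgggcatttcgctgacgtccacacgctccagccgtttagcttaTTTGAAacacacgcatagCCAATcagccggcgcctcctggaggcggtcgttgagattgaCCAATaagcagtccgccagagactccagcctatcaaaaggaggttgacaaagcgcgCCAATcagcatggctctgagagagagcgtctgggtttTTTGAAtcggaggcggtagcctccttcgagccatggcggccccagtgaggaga
Ccnb1, chr2:33655176-33655475, minus strand: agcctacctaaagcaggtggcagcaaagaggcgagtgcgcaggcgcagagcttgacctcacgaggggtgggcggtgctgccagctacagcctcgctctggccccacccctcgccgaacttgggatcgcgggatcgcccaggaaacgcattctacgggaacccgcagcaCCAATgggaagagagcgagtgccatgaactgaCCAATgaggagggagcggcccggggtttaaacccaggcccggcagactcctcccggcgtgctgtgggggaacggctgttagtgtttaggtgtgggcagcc
Cdk1, chr20:19265043-19265342, plus strand: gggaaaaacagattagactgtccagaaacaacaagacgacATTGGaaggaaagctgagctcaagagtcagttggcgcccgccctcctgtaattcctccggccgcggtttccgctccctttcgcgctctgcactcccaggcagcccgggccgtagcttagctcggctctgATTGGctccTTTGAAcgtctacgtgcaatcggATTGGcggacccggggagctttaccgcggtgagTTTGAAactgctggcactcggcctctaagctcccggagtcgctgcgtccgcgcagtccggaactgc
Top2a, chr10:84473044-84473343, minus strand: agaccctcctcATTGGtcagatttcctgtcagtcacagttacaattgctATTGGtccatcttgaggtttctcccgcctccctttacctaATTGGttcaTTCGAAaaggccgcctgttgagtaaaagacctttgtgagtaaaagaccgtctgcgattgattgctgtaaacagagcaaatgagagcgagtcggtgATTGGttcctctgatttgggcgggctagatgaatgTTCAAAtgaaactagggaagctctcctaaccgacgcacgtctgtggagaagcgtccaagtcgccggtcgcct
Mki67, chr1:199952544-199952843, minus strand: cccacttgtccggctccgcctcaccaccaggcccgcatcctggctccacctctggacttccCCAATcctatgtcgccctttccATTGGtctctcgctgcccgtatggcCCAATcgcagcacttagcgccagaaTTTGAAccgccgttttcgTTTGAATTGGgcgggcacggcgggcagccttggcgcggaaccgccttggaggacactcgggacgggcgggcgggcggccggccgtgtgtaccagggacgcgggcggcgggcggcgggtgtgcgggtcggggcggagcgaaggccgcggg
Cdca8, chr5:142483150-142483449, minus strand: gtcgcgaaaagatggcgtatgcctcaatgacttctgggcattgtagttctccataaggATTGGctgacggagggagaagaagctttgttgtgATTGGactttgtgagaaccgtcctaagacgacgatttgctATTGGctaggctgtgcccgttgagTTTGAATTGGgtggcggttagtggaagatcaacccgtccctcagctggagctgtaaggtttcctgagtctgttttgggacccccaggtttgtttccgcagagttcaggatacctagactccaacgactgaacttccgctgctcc
Plk1, chr1:186147408-186147707, plus strand: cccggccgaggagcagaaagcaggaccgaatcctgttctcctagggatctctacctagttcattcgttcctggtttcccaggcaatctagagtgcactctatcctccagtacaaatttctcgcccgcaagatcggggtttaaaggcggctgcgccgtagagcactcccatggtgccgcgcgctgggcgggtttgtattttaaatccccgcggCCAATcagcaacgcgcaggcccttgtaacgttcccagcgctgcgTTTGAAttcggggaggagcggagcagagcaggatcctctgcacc

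Of the 56 genes in the rule, 48 had a single promoter in the table, 1 had more than 1 and was left out of the counts, and 7 had none. The CHR letters were found in 35 of 48 promoters, or 72.9%, against 19.7% of all 33469 promoters of the same length. A CCAAT box was found in 36, or 75%, against 37.5%, and at least 2 of them in 23, or 47.9%, against 11.2%. Both motifs stood together in 29, or 60.4%, against 7.95%. A match of letters is a description and not a site of binding. Genes whose levels ran in opposite directions both carried the motifs: Ncapg had 1 CHR match and 3 CCAAT matches, and Cdca8 had 1 and 4. Ccnb1 had 2 CCAAT matches and no CHR letters in this window, and Anln had 2 CHR matches and no CCAAT box.

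Reads in the listed genes numbered between 15220638 in PNU 8 h and 31510333 in MLA 12 h. Over all genes 2 libraries stood apart. In the 9 pairs that each library forms, a median of 30.2% of genes differed by at least 25%, the higher of the 2 levels over the lower (the 25% limit from here on), where the pair held nicotine 1 h and 24.8% where it held PNU 3 h, against 9.31% to 16.3% for each of the other 8 libraries. The share of reads in mitochondrially encoded genes was smallest in PNU 3 h at 2.98% and highest in nicotine 12 h at 3.58%. Of 20 pigment epithelium markers 10 had values in all libraries: Rlbp1, Best1, Mitf, Pmel, Rdh5, Krt8, Tjp1, Ezr, Slc16a1 and Bsg. Their summed level ran from 62804 normalised reads in PNU 8 h to 69801 in nicotine 1 h, with Bsg the largest part. Rlbp1 ran from 12.6 in MLA 12 h to 30.9 in nicotine 1 h, and Rdh5 from 43.2 in DMSO 12 h to 77.3 in nicotine 1 h. Rpe65, Otx2, Tyr, Tyrp1, Dct, Lrat, Ttr, Serpinf1, Cdh1 and Krt18 were not among the genes with reads in all 10 libraries under a name held by 1 gene. Summed levels of markers of endothelial, immune and neuronal cells lay between 58.3 and 369 normalised reads in every library, with 3 or 4 of 10 genes measured in each list. Fibroblast markers, with 3 of 10 measured, had summed levels from 34616 in nicotine 12 h to 61239.8 in PNU 3 h, and glial markers, with 6 of 10 measured and Vim the bulk of the sum, from 43953 in PNU 30 min to 65591 in nicotine 1 h. Their part in the results was not tested.

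**Figure D1:**
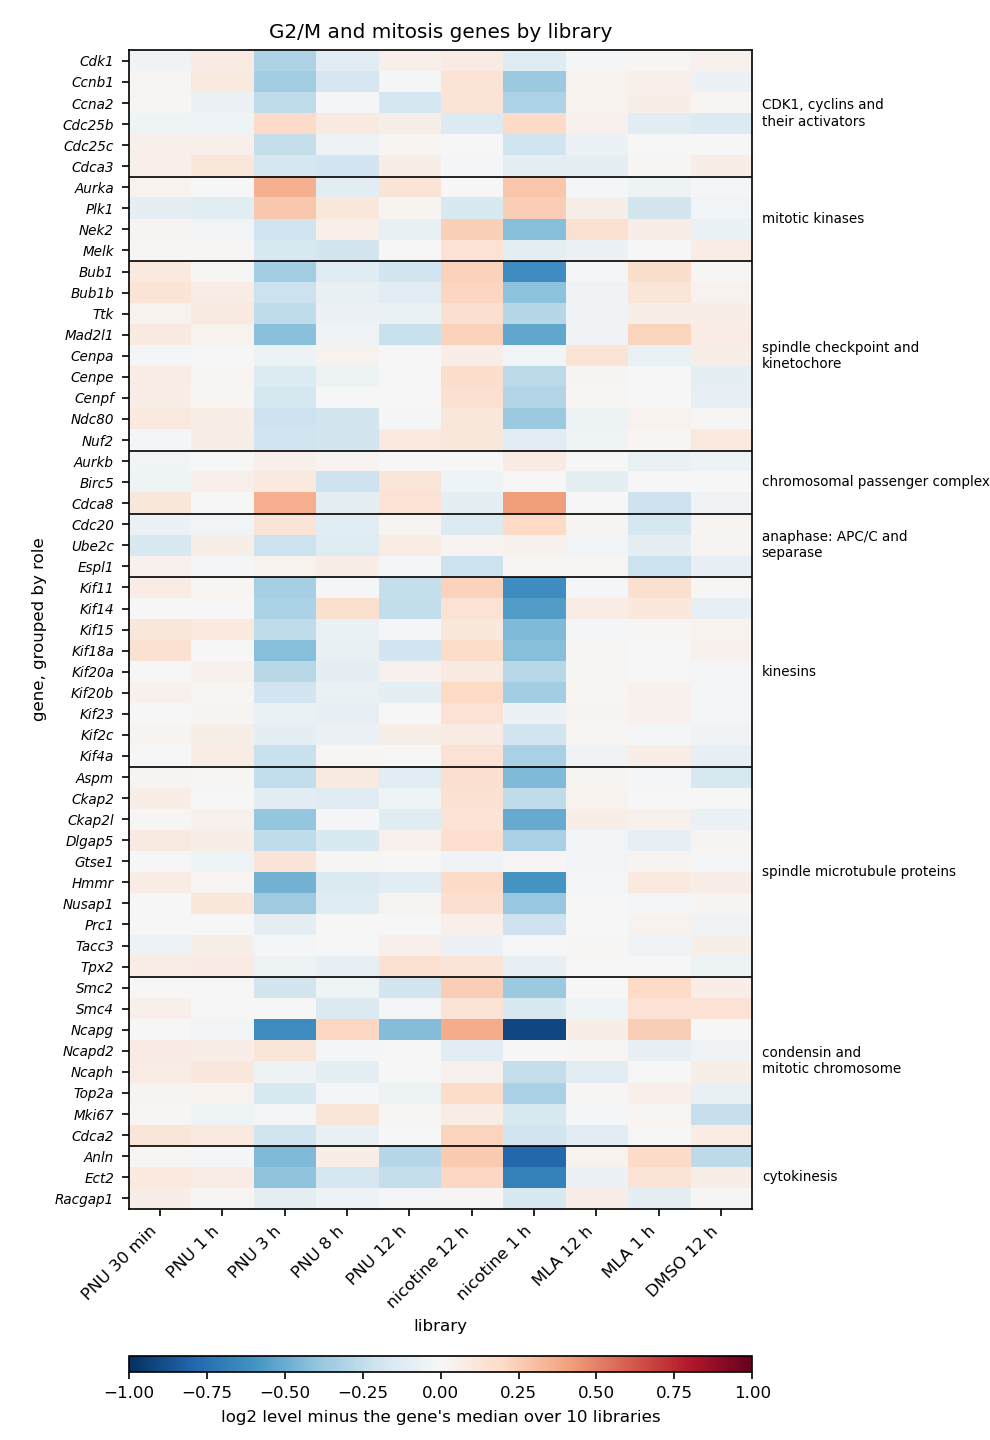
Heat map of the 55 genes (rows, grouped by role) in the 10 libraries (columns). Colour gives the log2 level minus that gene's own median over the libraries, blue lower and red higher. Most rows are bluest in nicotine 1 h, next in PNU 3 h, and red in nicotine 12 h, while Cdca8, Plk1 and Aurka are red in nicotine 1 h and PNU 3 h.

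Mitotic genes were measured in every library, and their levels differed little between most of them. Summed over the 55 genes the level was 257586 normalised reads in nicotine 12 h and 203789 in nicotine 1 h, which were the highest and the lowest of the 10 libraries; PNU 3 h had 216651 and the other 7 lay between 230936 and 244215. As a share of all reads in listed genes this was 1.09% in nicotine 12 h and 0.852% in nicotine 1 h. The median gene of the 55 stood 0.14 above its own median over libraries on the log2 scale in nicotine 12 h, and below it by 0.26 in nicotine 1 h (-0.26) and by 0.19 in PNU 3 h (-0.19). In the other 7 libraries this median deviation ran from -0.06 in PNU 8 h to 0.03 in PNU 30 min. Over all genes with a mean level at or above 50 the same median was 0.00 in every library.

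The gap between the highest and the lowest library had a median of 0.45 on the log2 scale over the 55 genes, or 1.36-fold, beside 0.46, or 1.38-fold, over all 11190 genes with a mean level at or above 50. The gap reached 1.5-fold in 15 of the 55, where 31.9% of all genes reached it. Without nicotine 1 h it did so in 6, where 24.8% of all genes did. Over all 10 libraries the gap reached 2-fold in Ncapg and Anln alone, and 5.99% of all genes reached it. Without both nicotine 1 h and PNU 3 h, 1 of the 55 was left past 1.5-fold, Ncapg at 1.75-fold, beside 15.7% of all genes. Tacc3, a spindle protein that binds clathrin on kinetochore fibres, had the smallest gap, 1.08-fold, followed by Aurkb at 1.11-fold and Gtse1 at 1.13-fold. The direction was shared more than the size: 33 of the 55 were highest in nicotine 12 h, where 15.6% of all genes were, and 32 were lowest in nicotine 1 h, where 23.4% of all genes were.

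The widest gaps belonged to a condensin subunit and to proteins of cytokinesis. Ncapg, a subunit of condensin I that compacts mitotic chromosomes, had 1885, 1851, 1223, 2185 and 1400.3 normalised reads at 30 min, 1 h, 3 h, 8 h and 12 h of PNU, 2447 in nicotine 12 h and 1003 in nicotine 1 h, 1980.4 in MLA 12 h and 2242 in MLA 1 h, and 1892 in DMSO 12 h. Its 3 lowest values were those of nicotine 1 h, PNU 3 h and PNU 12 h, with no other library below 1851. Anln encodes anillin, a scaffold of the contractile ring, and had 3751, 3664, 2726, 3873 and 3037 normalised reads at 30 min, 1 h, 3 h, 8 h and 12 h of PNU, 4434 in nicotine 12 h and 2149.8 in nicotine 1 h, 3798 in MLA 12 h and 4224 in MLA 1 h, and 3089 in DMSO 12 h. The order was much the same, with nicotine 1 h lowest, PNU 3 h next and nicotine 12 h highest. Ect2, the exchange factor that activates RhoA at the division plane, had 6007, 5897, 4253, 4984 and 4741 normalised reads at 30 min, 1 h, 3 h, 8 h and 12 h of PNU, 6454 in nicotine 12 h and 3518 in nicotine 1 h, 5368 in MLA 12 h and 6151 in MLA 1 h, and 5854 in DMSO 12 h. Here nicotine 1 h and PNU 3 h were again the 2 lowest, and PNU 12 h and PNU 8 h came next.

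The core of the CDK1 switch had narrower gaps than Ncapg, Anln and Ect2, at 1.31-fold for Cdk1 and 1.42-fold for Ccnb1. The median over the 55 genes was 1.36-fold. Cdk1, the kinase that drives entry into mitosis, had 6645, 7215, 5513, 6344 and 7055 normalised reads at 30 min, 1 h, 3 h, 8 h and 12 h of PNU, 7224 in nicotine 12 h and 6277 in nicotine 1 h, 6759.7 in MLA 12 h and 6882 in MLA 1 h, and 7024 in DMSO 12 h. Its lowest value was in PNU 3 h, not in nicotine 1 h, and its whole range was 1.31-fold. Ccnb1, the B-type cyclin that activates it, had 10265, 10929, 8028, 9081 and 10131 normalised reads at 30 min, 1 h, 3 h, 8 h and 12 h of PNU, 11204 in nicotine 12 h and 7866 in nicotine 1 h, 10456 in MLA 12 h and 10541 in MLA 1 h, and 9769 in DMSO 12 h. Nicotine 1 h and PNU 3 h stood below all other libraries, which lay within 1.23-fold of each other. Top2a, the topoisomerase that untangles sister chromatids, carried the most reads of the 55 genes, without regard to gene length, and had 15174, 15289, 13377, 14780.4 and 14374 normalised reads at 30 min, 1 h, 3 h, 8 h and 12 h of PNU, 16939 in nicotine 12 h and 11909.9 in nicotine 1 h, 14995 in MLA 12 h and 15428 in MLA 1 h, and 14167 in DMSO 12 h. Its lowest library was nicotine 1 h and its highest nicotine 12 h.

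Some genes did not share this order. Mki67, the proliferation antigen that coats mitotic chromosomes, had 14202, 13689, 13885, 15341 and 14243 normalised reads at 30 min, 1 h, 3 h, 8 h and 12 h of PNU, 14823 in nicotine 12 h and 12679 in nicotine 1 h, 13983 in MLA 12 h and 14317 in MLA 1 h, and 12005 in DMSO 12 h. Its lowest library was the vehicle, DMSO 12 h, and its highest was PNU 8 h. Cdca8 encodes borealin, of the chromosomal passenger complex, and had 1785, 1653, 2122, 1556 and 1824 normalised reads at 30 min, 1 h, 3 h, 8 h and 12 h of PNU, 1545 in nicotine 12 h and 2213 in nicotine 1 h, 1655 in MLA 12 h and 1435 in MLA 1 h, and 1614 in DMSO 12 h. Nicotine 1 h and PNU 3 h were its 2 highest libraries. Plk1, the polo-like kinase that acts at centrosomes, kinetochores and the midbody, had 4107, 4061, 5287, 4698 and 4449 normalised reads at 30 min, 1 h, 3 h, 8 h and 12 h of PNU, 3929 in nicotine 12 h and 5194 in nicotine 1 h, 4564 in MLA 12 h and 3851 in MLA 1 h, and 4303 in DMSO 12 h. Again PNU 3 h and nicotine 1 h were above all others. Aurkb, the kinase of the same passenger complex as borealin, stayed between 2808 in MLA 1 h and 3114 in nicotine 1 h.

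**Figure D2:**
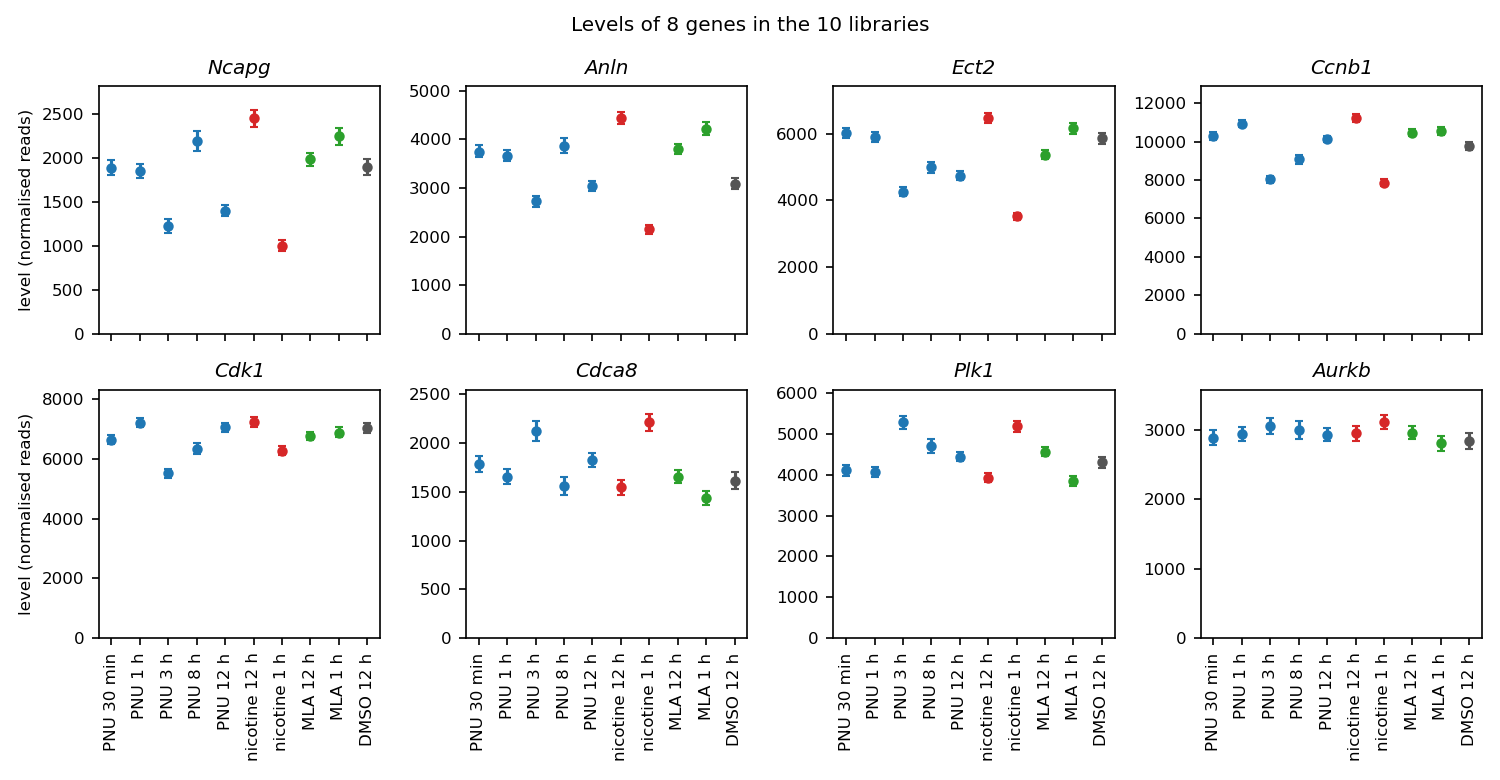
Levels of 8 genes in normalised reads (vertical axes, from 0) in each library (horizontal axes). Each point is 1 library, coloured by compound, with an exact Poisson 95% interval for counting error only. In Ncapg, Anln, Ect2 and Ccnb1 nicotine 1 h and PNU 3 h are the 2 lowest points, in Cdca8 and Plk1 they are the 2 highest, and Aurkb is nearly flat.

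The first comparison set 12 h against 1 h within each compound, the only times that all 3 compounds share. In nicotine 43 of the 55 genes were higher at 12 h than at 1 h and 12 were lower, with a median log2 fold of 0.41, beside -0.01 over all genes. Past the 25% limit and higher were 29 of the 55, where 21.6% of all genes were, and lower past the 25% limit were 4, where 19.5% of all genes were. In PNU 12 genes were higher and 43 lower, with a median of -0.04; none was higher past the 25% limit, against a background of 4.28%, and Ncapg alone was lower past it, against 6.62%. In MLA 24 were higher and 31 lower, with a median of -0.02, and none passed the 25% limit in either direction, where 5.19% of all genes were higher and 4.12% lower. With PNU 1 h or MLA 1 h in place of nicotine 1 h, nicotine 12 h was higher in 42 or 47 of the 55 genes, with medians of 0.07 or 0.09, against 0.41 with nicotine 1 h. Intervals for counting error, computed from the reads of the 2 libraries, lay above 0 for 42 genes and below 0 for 9 in nicotine. They lay above for 6 and below for 24 in PNU, and above for 9 and below for 19 in MLA. The same share over all genes was not counted, so these numbers do not set the 55 genes apart. Such intervals are narrow at high read numbers and leave out 0 at small folds.

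**Figure D3:**
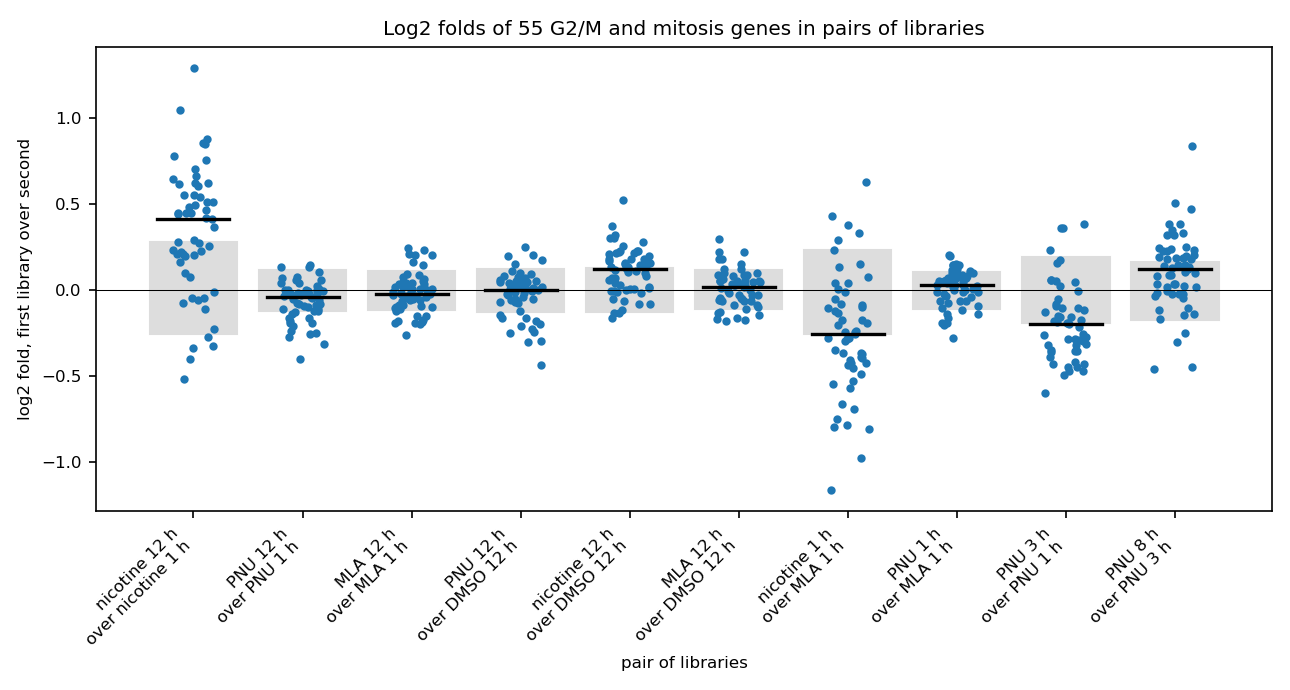
Log2 folds of the 55 genes (points) in 10 pairs of libraries (horizontal axis), first library over second; black lines are medians over the 55 genes and grey boxes span the quartiles of all genes with a mean level at or above 50 in the pair. Pairs that hold nicotine 1 h or PNU 3 h have wide boxes and medians of 0.41, -0.25, -0.20 and 0.12, while the medians of the other pairs lie between -0.04 and 0.12.

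By role, the nicotine pair divided the genes as follows. All 9 kinesins, the motors of the spindle and midzone, were higher at 12 h, 7 of them past the 25% limit. Kif11, which slides spindle poles apart, had 5819 normalised reads in nicotine 12 h and 3227 in nicotine 1 h (log2 fold 0.85). The log2 folds of the others were Kif14 0.70, Kif20b 0.55, Kif15 0.55, Kif18a 0.61, Kif4a 0.47, Kif20a 0.36, Kif2c 0.27 and Kif23 0.21. All 9 genes of the spindle checkpoint and kinetochore were higher as well, 7 of them past the 25% limit. Bub1, a checkpoint kinase, had 5679.9 normalised reads in nicotine 12 h and 3161 in nicotine 1 h (log2 fold 0.85), and Mad2l1, which holds CDC20 in check, had 3509 normalised reads in nicotine 12 h and 2079.7 in nicotine 1 h (log2 fold 0.75). The remaining 7 had log2 folds of Bub1b 0.62, Ndc80 0.48, Cenpe 0.45, Ttk 0.45, Cenpf 0.44, Nuf2 0.22 and Cenpa 0.10; Cenpa, the centromeric histone, was the smallest.

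Among the spindle microtubule proteins 8 of 10 were higher at 12 h and 6 passed the 25% limit. Hmmr, which helps focus spindle poles, had 2299.6 normalised reads in nicotine 12 h and 1339 in nicotine 1 h (log2 fold 0.78). The log2 folds of the others were Ckap2l 0.64, Aspm 0.60, Nusap1 0.54, Dlgap5 0.49, Ckap2 0.41, Prc1 0.25, Tpx2 0.21, Gtse1 -0.04 and Tacc3 -0.06. Of the condensin and chromosome group 7 of 8 were higher, led by Ncapg (log2 fold 1.29, 95% interval 1.19 to 1.39) and Smc2 (log2 fold 0.62), the core ATPase of condensin. The rest of this group had log2 folds of Top2a 0.51, Cdca2 0.42, Smc4 0.29, Ncaph 0.28, Mki67 0.23 and Ncapd2 -0.11. Ncapg and Ncapd2 encode subunits of the same condensin I complex and stood at opposite ends of the group. All 3 cytokinesis genes were higher: Anln (log2 fold 1.04, 95% interval 0.97 to 1.12), Ect2 (log2 fold 0.88, 95% interval 0.82 to 0.93) and Racgap1 (log2 fold 0.16). Racgap1 encodes the subunit of centralspindlin that binds Ect2.

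The CDK1 group was mixed, with 5 of 6 higher and 2 of those past the 25% limit: Ccnb1 0.51, Ccna2 0.45, Cdk1 0.20, Cdc25c 0.20, Cdca3 0.08 and Cdc25b -0.32 on the log2 scale. Cdc25b and Cdc25c are both phosphatases that switch CDK1 on, and they differed in sign. Of the 4 mitotic kinases Nek2, which parts the centrosomes, was higher (log2 fold 0.66), as was Melk (log2 fold 0.23), and Plk1 (log2 fold -0.40, 95% interval -0.46 to -0.34) and Aurka (log2 fold -0.28, 95% interval -0.36 to -0.19), the centrosomal aurora kinase, were lower. All 3 chromosomal passenger genes were lower, with log2 folds of Cdca8 -0.52, Birc5 -0.05 and Aurkb -0.08. So were all 3 genes of anaphase. Cdc20, which activates the anaphase-promoting complex, had -0.34, Espl1, the separase that cuts cohesin, -0.23, and Ube2c, the E2 enzyme of that complex, -0.01. For Birc5 and Ube2c the Poisson 95% intervals of the 2 nicotine levels overlapped. Those of Aurkb overlapped at their edges, which does not mean that the interval of its fold holds 0.

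In the other 2 compounds the change was often of the other sign. The sign was the same as in nicotine in 6 of the 55 genes in PNU and in 16 in MLA. Of the 55 genes, 27 were higher at 12 h in nicotine and lower in both PNU and MLA, 7 were the reverse, and 1 had the same sign in all 3 compounds. Ncapg had 1400.3 normalised reads in PNU 12 h and 1851 in PNU 1 h (log2 fold -0.40), the largest drop in PNU, followed by Ect2 (-0.31) and Anln (-0.27). The highest log2 folds in PNU were those of Cdca8 0.14, Aurka 0.13 and Plk1 0.13. In MLA the lowest were Mad2l1 -0.26, Ect2 -0.20 and Smc2 -0.19 and the highest Plk1 0.25, Espl1 0.23 and Cenpa 0.21. Across the 55 genes Pearson's r between the nicotine and the PNU folds, which share no library, was -0.89, beside -0.51 over all genes, and between nicotine and MLA -0.70, beside -0.39. Between PNU and MLA r was 0.67, beside 0.29 over all genes. These values are across genes that are not independent of each other and describe 6 libraries.

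With the 3 compounds taken as repeats of the time contrast, limma on log2(level + 1) with compound as a block called 0 of the 55 genes at a Benjamini-Hochberg adjusted p under 0.05 over 13391 genes, where 0% of all genes were called higher and 0% lower. None of the 55 had an unadjusted p under 0.05, and 106 of all genes did. Their median log2 change was 0.10, with 44 higher, and a median SE of 0.13. This mean rests on the nicotine pair. With nicotine 1 h or nicotine 12 h left out, the PNU and MLA pairs alone give the contrast, so the 2 settings are not separate evidence. Neither pair has a replicate. The median was then -0.04. Mad2l1 (log2 change -0.26), Ect2 (-0.26) and Ncapg (-0.29) were called lower by limma, with adjusted p between 0.00922 and 0.0318. Of all genes 2.52% were called lower without nicotine 1 h and 2.32% without nicotine 12 h.

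The difference between compounds in the change with time was fitted in limma after these values had been seen, with the PNU and MLA pairs giving the spread. Of the 55 genes 31 were called with a larger change in nicotine, where 18.2% of all genes were, and 6 with a smaller one, where 16.2% were. Ncapg differed by 1.58 (SE 0.13, adjusted p = 2.74e-29), Anln by 1.26 (SE 0.13, adjusted p = 4.46e-20) and Ect2 by 1.13 (SE 0.13, adjusted p = 8.68e-16). At the other end stood Cdca8 at -0.69 (SE 0.13, adjusted p = 3.31e-06) and Plk1 at -0.59 (SE 0.13, adjusted p = 5.08e-05), with Cdc20, Cdc25b, Aurka and Espl1 the other 4 called. The called genes were 7 of 9 kinesins, 7 of 9 checkpoint and kinetochore genes, 6 of 10 spindle proteins, 6 of 8 condensin and chromosome genes, 2 of 3 cytokinesis genes, 2 cyclin genes (Ccnb1 and Ccna2) and Nek2, all higher. Cdk1 differed by 0.23 (SE 0.13, adjusted p = 0.179) and Mki67 by 0.21 (SE 0.15, adjusted p = 0.283), and neither was called. The fit leaves 1 residual degree of freedom per gene and takes its spread from all genes, so that its p-values do not rest on repeats of the nicotine pair; it sets 1 pair of nicotine libraries against 2 other pairs, and an exact permutation of which of the 3 compounds stands apart cannot give a p below 0.333.

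At 1 h the compounds were set against the negative control. In nicotine 1 h 12 of the 55 genes were higher than in MLA 1 h and 43 lower, with a median log2 fold of -0.25, beside 0.00 over all genes. Past the 25% limit and lower were 23, where 20.8% of all genes were, and higher past the 25% limit were 4, where 17.2% were. The lowest were Ncapg -1.16, Anln -0.97 and Ect2 -0.81 and the highest Cdca8 0.63, Plk1 0.43 and Cdc20 0.37. In PNU 1 h against MLA 1 h none passed the 25% limit, where 3.83% of all genes were higher and 4.81% lower; the median was 0.03. The lowest log2 folds were Ncapg -0.28, Anln -0.20 and Mad2l1 -0.19 and the highest Cdca8 0.20, Espl1 0.20 and Ncapd2 0.15. Set against nicotine 1 h directly, PNU 1 h was higher past the 25% limit in 24 genes, where 17% of all genes were, and lower in 2, where 13.2% were. At the low end of the log2 folds were Cdca8 -0.42, Plk1 -0.36 and Aurka -0.29, and at the high end Ncapg 0.88, Anln 0.77 and Ect2 0.75. The doses of the 2 agonists differ.

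The PNU course shows where its libraries parted. At 1 h against 30 min none of the 55 genes passed the 25% limit, where 1.91% of all genes were higher and 2.45% lower. The lowest log2 folds were Kif18a -0.16, Cdca8 -0.11 and Bub1 -0.08 and the highest Ube2c 0.21, Cdk1 0.12 and Tacc3 0.11. At 3 h 11 genes were higher than at 1 h and 44 lower, with a median of -0.20, beside 0.00 over all genes. Past the 25% limit and lower were 14, where 11.6% of all genes were, and higher past the 25% limit were 3, where 13.8% were. The lowest were Ncapg -0.60, Hmmr -0.49 and Ect2 -0.47 and the 3 that were higher Plk1 0.38, Aurka 0.36 and Cdca8 0.36. At 8 h 39 genes were higher than at 3 h, with a median of 0.12; 7 passed the 25% limit, where 12.1% of all genes did, and 2 were lower by as much, where 10.5% were. At the low end of the log2 folds were Aurka -0.46, Cdca8 -0.45 and Birc5 -0.30, and at the high end Ncapg 0.84, Anln 0.51 and Kif14 0.47. Ncapg had 2185 normalised reads in PNU 8 h and 1223 in PNU 3 h, and Aurka had 1907 normalised reads in PNU 8 h and 2619.9 in PNU 3 h. At 12 h against 8 h the median was 0.03, none was higher past the 25% limit, where 8.58% of all genes were, and Ncapg -0.64, Kif14 -0.40 and Anln -0.35 were lower by that much, where 11.4% were. The highest log2 folds were Birc5 0.32, Nuf2 0.28 and Cdca3 0.26. PNU 8 h was the library with the fewest reads.

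All 9 kinesins, all 9 checkpoint and kinetochore genes and all 3 cytokinesis genes had lower levels in PNU 3 h than at 1 h of PNU, and all 3 chromosomal passenger genes were higher. Set side by side, the folds of nicotine 1 h over MLA 1 h and of PNU 3 h over PNU 1 h, which share no library, had the same sign in 50 of the 55 genes, with r = 0.84, beside r = 0.60 over 11190 genes. The part in the mitotic genes of what these 2 libraries share over all genes was not tested.

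**Figure D4:**
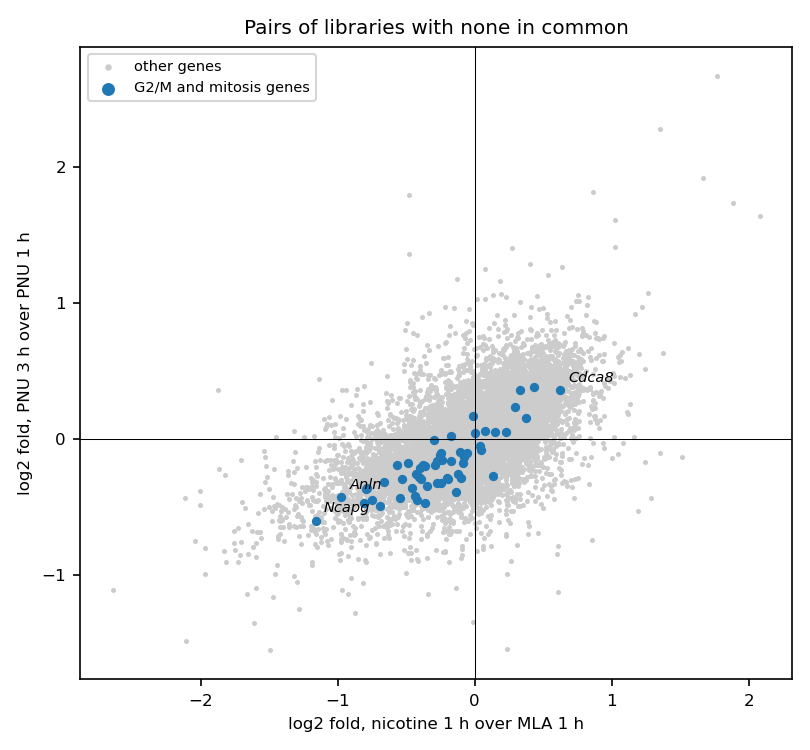
Log2 folds of nicotine 1 h over MLA 1 h (horizontal axis) and of PNU 3 h over PNU 1 h (vertical axis) for the 55 genes (blue) and the other genes with a mean level at or above 50 (grey); the 2 pairs share no library. The blue points run from Ncapg at lower left to Cdca8 and its neighbours at upper right, along the axis of the grey cloud.

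PNU 8 h and 12 h were also fitted against PNU 30 min and 1 h, 2 libraries against 2. Of the 55 genes 45 were lower late, with a median log2 change of -0.07. Limma called 0 of the 55, where 0.0149% of all genes were called higher and 0.164% lower, and 3 had an unadjusted p under 0.05, all lower, beside 929 of all genes. These were Ect2 at -0.29 (SE 0.08), Bub1 at -0.21 (SE 0.08) and Bub1b at -0.20 (SE 0.08), with limma adjusted p of 0.536, 0.669 and 0.687. The call depended on single libraries: 8 genes were called lower without PNU 8 h, beside 6.80% of all genes, and 5 without PNU 12 h, beside 5.26%. Ect2 was called in both, and the others were Ncapg, Anln, Kif11, Kif18a, Mad2l1, Bub1 and Bub1b without PNU 8 h, and Ccnb1, Cdca3, Dlgap5 and Ndc80 without PNU 12 h.

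At 12 h each compound was compared with the 1 vehicle library, which the 3 comparisons share. PNU 12 h was higher than DMSO 12 h in 27 genes, with a median log2 fold of 0.00 over the 55; none was higher past the 25% limit, where 5.3% of all genes were, and Ncapg was lower by that much, where 7.16% were. Its lowest folds were Ncapg -0.43, Ect2 -0.30 and Mad2l1 -0.30 and its highest Mki67 0.25, Tpx2 0.21 and Cdc25b 0.20. Nicotine 12 h was higher than DMSO 12 h in 42 genes, with a median of 0.12, beside 0.00 over all genes; 2 passed the 25% limit, where 7.11% of all genes did, and none was lower by that much, where 6.33% were. Those 2 were Anln (0.52) and Ncapg (0.37), followed by Aspm (0.32), and the lowest were Cdc20 -0.16, Plk1 -0.13 and Espl1 -0.13. MLA 12 h was higher in 29 genes, with a median of 0.02 and none past the 25% limit, where 6.57% of all genes were higher and 4.32% lower. The lowest log2 folds were Smc4 -0.18, Cdca2 -0.17 and Ncaph -0.17 and the highest Anln 0.30, Mki67 0.22 and Nek2 0.22. With PNU 30 min in place of the vehicle, MLA 12 h was higher in 18 genes, with a median of -0.03.

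Mki67 was higher than DMSO 12 h in all 3 compounds, by 0.25 in PNU, 0.30 in nicotine and 0.22 in MLA on the log2 scale, and DMSO 12 h, which the 3 folds share, was the lowest of the 10 libraries for this gene. All 9 kinesins and all 9 checkpoint and kinetochore genes were higher in nicotine 12 h than in DMSO 12 h, none of them past the 25% limit. Against MLA 12 h, nicotine 12 h was higher in 44 genes with a median of 0.12; Cdca2, which returns phosphatase activity to chromosomes after mitosis, was the 1 gene past the 25% limit (0.33), where 2.82% of all genes were, and none was lower by that much, where 4.73% were. Next came Ncapg 0.31 and Mad2l1 0.27, and the lowest were Espl1 -0.23, Plk1 -0.22 and Cdc25b -0.18. PNU 12 h was lower than nicotine 12 h past the 25% limit in 10 genes, where 12.9% of all genes were, and higher in none, where 8.74% were. At the low end of the log2 folds were Ncapg -0.81, Anln -0.55 and Kif11 -0.46, and at the high end Cdca8 0.24, Espl1 0.20 and Cdc25b 0.19. PNU 12 h was lower than MLA 12 h by that much in 2, Ncapg and Anln, where 7.96% of all genes were, and higher in none, where 4.17% were. The lowest log2 folds were Ncapg -0.50, Anln -0.32 and Kif14 -0.32 and the highest Birc5 0.21, Cdca3 0.16 and Tpx2 0.15.

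With PNU and nicotine set against MLA at both times, limma with time as a block called 0 of the 55 genes, where 0% of all genes were called in either direction; 0 of the 55 and 134 of all genes had an unadjusted p under 0.05, and the median log2 change was -0.03. The slope on log2 hours over the 9 treated libraries had a median of 0.01 per doubling of time, with 0 of the 55 called, where 0% of all genes were called in either direction, and 0 of the 55 and 179 of all genes at an unadjusted p under 0.05.

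Over all 45 pairs of libraries the number of the 55 genes past the 25% limit had a median of 2 and ran from 0 to 33, beside a median of 13.8% of all genes. The 9 pairs with nicotine 1 h had a median of 22 of the 55, beside a median of 30.2% of all genes. Those with PNU 3 h had a median of 15 of the 55, beside 24.8% of all genes. In the 28 pairs with neither, the median was 0.5 and the highest count 10, beside a median of 10.9% of all genes.

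Other genes of the cell cycle were described from lists chosen by function. Of 60 further G2/M and mitosis genes 53 were measured with a mean level at or above 50, and 39 of them were higher in nicotine 12 h than in nicotine 1 h, with a median log2 fold of 0.24 and 20 past the 25% limit, beside the 21.6% of all genes. The ends of this list were Depdc1, needed for chromosome alignment, and Oip5, which loads CENP-A, at 0.98 and 0.92, and Pkmyt1, the membrane kinase that inhibits CDK1, and Poc1a, a centriole protein, at -0.63 and -0.48. In the limma fit of the difference between compounds 29 of 54 in this list were called higher and 6 lower. Of the 40 G1/S and DNA replication genes 24 were higher in nicotine 12 h, with a median of 0.11. Past the 25% limit and higher were 6 of the 40, beside the 21.6% of all genes. Cdt1, Ung, Fen1, Gins2, Mcm6 and Pold1 were lower past it, where 19.5% of all genes were. The highest were Tyms (1.00), which makes thymidylate, and Pola1 (0.77), the primase-bound polymerase. At the low end were Cdt1 (-0.62), which licenses origins, and Ung (-0.53), which removes uracil from DNA. The same limma fit called 9 of 40 higher and 8 lower, where 18.2% of all genes were called higher and 16.2% lower. In PNU 3 h against PNU 1 h the medians were -0.17 for the further G2/M genes and -0.04 for the replication genes.

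The regulators of the program included genes of both signs. Mybl2, the B-MYB that joins MuvB in G2, had 4767 normalised reads in nicotine 12 h and 6844 in nicotine 1 h (log2 fold -0.52, 95% interval -0.57 to -0.47), and it had 6799 normalised reads in PNU 3 h and 4844 in PNU 1 h. Its 2 highest libraries were nicotine 1 h and PNU 3 h. Foxm1, the forkhead activator of G2 genes, had 1411 normalised reads in nicotine 12 h and 1627 in nicotine 1 h, and E2f1 had 1214 normalised reads in nicotine 12 h and 1473 in nicotine 1 h. Lin9, a core subunit of MuvB, and Rbl1, the p107 pocket protein, went the other way, at log2 folds of 1.02 and 0.98, and Myc was the lowest of the list at -0.71. Of the 25 regulators measured, 15 were higher in nicotine 12 h, with a median of 0.25, and limma called 10 higher and 4 lower in the difference between compounds, where 18.2% of all genes were called higher and 16.2% lower. Of the 12 G1 cyclins, their kinases and CDK inhibitors 4 were higher, with a median of -0.26. Cdkn1a, the p21 inhibitor, had 1474 normalised reads in nicotine 12 h and 2253 in nicotine 1 h (log2 fold -0.61, 95% interval -0.70 to -0.52) and Ccnd1, cyclin D1, had 718 normalised reads in nicotine 12 h and 1047 in nicotine 1 h (log2 fold -0.55, 95% interval -0.68 to -0.41), while Cdk2 (0.30) and Ccnd2 (0.36) were highest. In this list limma called 2 of 12 higher and 4 lower, beside the same 18.2% and 16.2% of all genes. The other 4 limma fits called 0 genes of these 4 lists.

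The folds were also set against the length of the genes. Across the 55 genes the log2 fold of nicotine 12 h over nicotine 1 h had r = 0.52 with log10 of the gene's length in the genome, from RefSeq on GRCr8, beside r = 0.29 over 9965 genes. With the percentage of G and C in the promoter r was -0.03 over 47 genes, beside -0.07 over 7829. The points share 2 libraries and their scaling, and the part of length in the result was not tested.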

How the data were processed

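RNA of RPE-J cells was read in 10 polyA-selected libraries, 1 per condition. Per the submitters' processing notes the tools were Trimmomatic 0.36, STAR 2.5.2b, featureCounts, Subread 1.5.2 and DESeq2, the last with no version. The annotation used, its build and the strandedness of counting were not given in the sources used here. Each of the 39 tables deposited by the authors covers 1 pair of libraries, with a level per library (a signal, reads divided by a size factor set in each table), a log2 fold change, and p-values, per the file headers. The deposited p-values set 1 library against 1 and were not used.

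Dividing by the value of 1 read left 100% of values within 0.01 of whole reads, and 0 differed between tables. These reads were scaled together by the median of ratios over the 13391 genes with reads in all 10 libraries. Reads in listed genes are not full library depth, since genes below mean levels between 8.32 and 10.5 were not listed. For 9 library numbers the file records name the sample; by elimination the last is PNU 12 h.

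Fits used limma 3.58.1 in R 4.3.3 (lmFit, eBayes with trend) on log2(level + 1), with Benjamini-Hochberg adjustment over all 13391 genes. Only the fit of 12 h against 1 h was run on simulated reads, in which no library stood apart. The fit of the difference between compounds was not run on simulated reads. The pseudocount understates the change of low genes. Single pairs got no test, but a count of genes whose higher level was at least 25% above the lower with a mean level at or above 50 in the pair, and exact binomial (Clopper-Pearson) 95% intervals; exact Poisson intervals were used for levels. Since reads are not independent molecules, both cover counting error only. Members, lists, comparisons and alternatives were chosen with earlier results of these data known. Values in all libraries are given for the 3 genes with the widest range, for Top2a, which has the highest mean level, and for Cdk1, Ccnb1 and Mki67; per comparison the 3 highest and 3 lowest folds are named, and from other lists the 2 largest and 2 smallest with Foxm1, Mybl2, E2f1, Cdkn1a and Ccnd1. Kif11, Bub1, Mad2l1, Hmmr, Cdca8, Plk1 and Aurkb were given levels after their values were seen. The alternatives tried were TMM scaling, scaling by total reads, a pseudocount of 8, other floors and folds, another library in place of the vehicle, and leaving out each library.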

Additional observations from a re-analysis of the deposited data

Results flagged for a closer look

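The change between 12 h and 1 h in the 55 genes was set side by side for the compounds. The median log2 fold of 12 h over 1 h was 0.41 in nicotine, -0.04 in PNU and -0.02 in MLA. Gene by gene the difference was fitted with limma after these values had been seen. Of the 55 genes 37 were called, 31 with a larger change in nicotine and 6 with a smaller one, where 18.2% and 16.2% of all genes were called. This fit has 1 pair of nicotine libraries and takes its spread from all genes, and an exact permutation of which of the 3 compounds stands apart cannot give a p below 0.333. The nicotine pair holds the 1 h library that stands apart over all genes. Whether the difference lies in the nicotine treatment or in that library cannot be told apart with 1 library per condition.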

How the results depend on the processing

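The values were recomputed under 74 alternatives for 11 results, and in 64 of these the count stayed within 1.5 times the value reported. TMM scaling, scaling by total reads, a pseudocount of 8 and a floor of 50 on the mean level moved none of the counts of the 5 limma fits past that. With each library left out in turn, the genes called in the 12 h against 1 h fit ranged from 0 to 3, with 3 without nicotine 1 h or nicotine 12 h, and those in the fit of late against early PNU ranged from 0 to 8, with 8 without PNU 8 h and 5 without PNU 12 h; all of these were lower late. In the difference between compounds no library could be left out with a residual degree of freedom remaining. With PNU 30 min in place of the vehicle, MLA 12 h was higher in 18 genes in place of 29. The median number of genes past the fold over 45 pairs was 0 at 1.5-fold, 0 at 2-fold and 0.5 without nicotine 1 h and PNU 3 h, in place of 2. Ranges of at least 1.5-fold were found in 6 genes without nicotine 1 h and in 1 without both, in place of 15; the alternatives that leave out those 2 libraries, the replaced 1 h libraries and the difference between compounds were chosen after seeing the data. The count tests of edgeR and DESeq2 on whole reads were not run. Depth limited Nek2, Ube2c and Kif14, the genes with the fewest reads, most. Compound and time were blocks in the fits of 12 h against 1 h and of agonists against MLA. By replicate number no paired analysis was possible because each condition is 1 library.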
